A study of Homo sapiens with 6 samples.

Results

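The components of TGF-beta, activin and BMP signalling were followed in BJ cells on day 8 of reprogramming. The 48 genes, of 27788 in the table, were taken by symbol as ligands, latent binding proteins, receptors, SMADs, antagonists and SMAD-induced feedback genes, with ligands of the Nodal type left out. All 48 symbols had a row. BJ is an established line of human foreskin fibroblasts, and every library came from BJ cells that had received lentivirus with 2 polycistronic constructs, one for OCT4 and SOX2 and one for KLF4 and MYC. Cells passed from serum to a medium made for human embryonic stem cells, and were sorted by antibodies to the surface proteins CD13 (gene ANPEP) and CD201 (gene PROCR). The 3 groups were CD13- CD201- cells (double-negative), CD13- CD201+ cells (CD201-only) and CD13+ CD201+ cells (double-positive), with 2 poly-A RNA libraries each. Cells without the virus were not analysed here, so each comparison is between sorted fractions of transduced cells. The labels do not say whether the 2 libraries of a group came from separate cultures, so each p measures only the spread between these libraries, which may be technical. Whether counting used strand is not given, and antisense rows named after members reached at most 1.72 FPKM (SMAD1-AS1).

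TGF-beta family ligands are dimers that bring a pair of type I and a pair of type II receptor chains together on the cell surface. The type I kinase then phosphorylates receptor SMADs: SMAD2 and SMAD3 after TGF-beta and activin, and SMAD1, SMAD5 and SMAD9 after BMP. These join SMAD4, gather in the nucleus and switch on target genes, among them the inhibitory SMADs and the ID genes that damp or carry the response. TGF-beta is secreted bound to latent TGF-beta binding proteins and is stored in the matrix, and in fibroblasts it is a classical inducer of collagen and other matrix genes. In reprogramming of fibroblasts, TGF-beta signalling is known as a barrier and its inhibitors as an aid.

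Promoter sequence is shown for 5 members, because SMAD complexes act at short DNA elements and these genes carry differences described below or, for SMAD6, hold the full SMAD palindrome. Windows are the 250 bases before a RefSeq start site, on build GRCh38.p14, while the expression values rest on hg19. Of the 48 members 41 had at least 1 window, 73 windows in all; GREM1 has 2 starts in the table, and the first is shown. Capitals mark matches, on either strand, to the SMAD3 and SMAD4 palindrome GTCTAGAC, the SMAD element CAGACA, the GC-rich element GGCGCC bound by BMP SMADs, and the AP-1 element TGACTCA. No window below overlaps 2 of these motifs at the same bases.
TGFB2, chr1:218345086-218345335, plus strand: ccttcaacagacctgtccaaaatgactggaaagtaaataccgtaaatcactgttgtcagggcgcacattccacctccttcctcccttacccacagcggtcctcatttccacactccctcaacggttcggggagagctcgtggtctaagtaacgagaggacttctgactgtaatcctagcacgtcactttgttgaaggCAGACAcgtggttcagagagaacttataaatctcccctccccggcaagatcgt
LTBP2, chr14:74612238-74612487, minus strand: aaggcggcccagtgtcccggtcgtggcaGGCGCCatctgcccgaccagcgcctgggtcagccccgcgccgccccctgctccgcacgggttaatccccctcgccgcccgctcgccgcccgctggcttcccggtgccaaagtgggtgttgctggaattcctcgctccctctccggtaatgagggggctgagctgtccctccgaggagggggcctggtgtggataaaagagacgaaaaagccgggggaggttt
GREM1, chr15:32717754-32718003, plus strand: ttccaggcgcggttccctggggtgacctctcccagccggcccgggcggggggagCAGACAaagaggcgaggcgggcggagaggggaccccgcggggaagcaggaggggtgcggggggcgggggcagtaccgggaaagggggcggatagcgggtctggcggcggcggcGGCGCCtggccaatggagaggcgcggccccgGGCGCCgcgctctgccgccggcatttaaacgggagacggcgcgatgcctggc
ID1, chr20:31605039-31605288, plus strand: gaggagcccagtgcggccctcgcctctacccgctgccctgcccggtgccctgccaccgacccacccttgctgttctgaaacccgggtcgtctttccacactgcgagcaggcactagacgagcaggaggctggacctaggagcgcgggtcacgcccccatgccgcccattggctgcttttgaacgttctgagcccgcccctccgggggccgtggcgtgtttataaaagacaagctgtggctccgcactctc
SMAD6, chr15:66701986-66702235, plus strand: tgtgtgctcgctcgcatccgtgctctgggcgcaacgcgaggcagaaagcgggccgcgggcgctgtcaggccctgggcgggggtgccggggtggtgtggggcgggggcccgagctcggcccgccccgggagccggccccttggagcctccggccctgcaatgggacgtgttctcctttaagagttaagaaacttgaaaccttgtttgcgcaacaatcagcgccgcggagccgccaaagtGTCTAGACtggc

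The palindrome GTCTAGAC stood in 1 of the 73 member windows, that of SMAD6, where its first base lies 12 bases before the start, and in 0.182% of all 35116 windows of the same length. CAGACA was in 13 member windows, 17.8%, against 13.6% of all windows, with 1 match in TGFB2 and 1 in GREM1. GGCGCC was in 19 member windows, from 17 members, 26.0%, against 16.4% of all, with 1 match in LTBP2 and 2 in GREM1. TGACTCA was in 3 member windows, 4.11%, against 4.2% of all. The ID1 window held none of the 4 motifs. Sequence outside the windows was not searched, so a window without a match does not show that a gene lacks these elements farther from its start. Matches describe the letters of these windows and not binding. The shares count windows, and a member can have more than 1. They were not adjusted for base composition, and a difference between the shares was not tested.

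The sorted proteins' transcripts differed between the groups in the direction of the sort. ANPEP was at 36.0 ± 0.347 FPKM (SD, n = 2) in double-negative cells, 28.9 ± 0.216 in CD201-only cells and 155.3 ± 3.65 in double-positive cells, and PROCR was at 17.3 ± 0.948, 47.5 ± 2.34 and 51.9 ± 0.842. Between the 2 CD13- groups, ANPEP was also called higher in double-negative cells (limma log2 difference 0.31, adjusted p = 0.000301), a difference that the sort does not define. FPKM are fragments per kilobase of transcript, scaled to library size. Replicates correlated at 0.9919 to 0.9943 over 12210 genes, with a median coefficient of variation of 5.32% to 6.38% for genes from 1 to 10 FPKM and 0.967% to 1.97% for the most abundant genes. Absolute depth is unknown; the commonest ratio between low values of 2 libraries put their relative depth, as an approximation, between 0.729 and 1.0 of the deepest. The mean over the 6 libraries was above 1 FPKM for 10 of 10 fibroblast markers, though LUM was at 0.528 and 0.2997 FPKM in double-negative and CD201-only cells and DCN at 0.7511 in CD201-only cells. Their summed level was 4236 to 4237 FPKM in the double-negative pair, 3775 to 3795 in the CD201-only pair and 8477 to 8582 in the double-positive pair of libraries. Against double-positive cells, 9 of the 10 were lower in double-negative and 10 of the 10 lower in CD201-only cells. The exception was THY1, at 1642 FPKM in the double-negative pair, 1175 in the CD201-only pair and 1370 in the double-positive pair. THY1 gave the largest part of the double-negative sum and was called higher there than in double-positive cells (limma log2 difference 0.26, adjusted p = 2.61e-05). The 4 markers of pluripotent cells summed to 76.5 to 80.7, 49.7 to 49.99 and 22.5 to 22.7 FPKM in the same order. Most of this came from TDGF1, at 62.0, 41.9 and 18.9 FPKM, and LIN28A was at 11.5, 3.15 and 1.67. NANOG was at 3.93, 4.18 and 1.64 FPKM and was not called between the CD13- groups by limma (adjusted p = 0.692). DPPA4 was under the filter and was not tested. The 5 epithelial markers summed to 3064 to 3075, 3972 to 4043 and 2012 to 2080 FPKM, nearly all of it from the keratins KRT8 and KRT18. EPCAM was at 3.51, 2.57 and 1.57 FPKM, CDH1 at 2.50, 3.03 and 1.11, and CLDN6 at 11.97, 11.33 and 4.15, with none of these called between the CD13- groups. The 3 neural markers summed to 234.2 to 239, 173.6 to 176.4 and 141.8 to 143.3, with NEUROD1 at 0. The 4 blood markers summed to 11.2 to 13.2, 8.08 to 8.50 and 52.9 to 56.3 FPKM, of which CD68 alone had a mean above 1 FPKM, and CD3E was at 0. The 3 muscle markers summed to 5.75 to 6.46, 11.7 to 12.2 and 8.02 to 8.14 FPKM, with MYOD1 and MYOG at 0. These sums moved with many of the results below, and their part in them was not tested. In bulk RNA, fewer cells of a type and less RNA per cell cannot be told apart.

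Differences are in log2(FPKM + 1), from a limma model over the 12210 genes whose mean reached 1 FPKM, and a gene is called at an adjusted p under 0.05. Of the 48 members, 42 passed that filter. Between double-negative and double-positive cells, 29 of these were called, 8 higher and 21 lower, where 66.6% of all genes were called, 42.1% higher and 24.5% lower. At 2-fold or more on this scale 1 member was higher and 9 were lower, against 2.01% and 4.67% of all genes and 6.68% in either direction. Between CD201-only and double-positive cells, 27 members were called, 8 higher and 19 lower, where 58.7% of all genes were called, 35.8% higher and 22.9% lower. At least 2-fold, 1 was higher and 7 lower, against 0.68% and 4.12% of all genes and 4.8% in either direction. Between double-negative and CD201-only cells, 31 members were called, 14 higher and 17 lower, where 37.9% of all genes were called, 21.5% higher and 16.5% lower, and 2 members were higher and 3 lower at 2-fold or more, against 1.03% and 1.18% of all genes and 2.21% in either direction. Any difference among the groups was called for 35 of the 42 members by limma's F test, where 73% of all genes were called. The share of members called in either direction against double-positive cells, 69% in double-negative and 64.3% in CD201-only cells, was thus near that of all genes. By direction the shares were less alike, with 50% and 45.2% of members lower and 19% higher in each comparison. Between double-negative and CD201-only cells 73.8% of members were called, against 37.9% of all genes. Several of these 31 calls were small and were lost in alternatives, as given for each gene below. After quantile normalization 27 members were called there, where 35.9% of all genes were. The members were chosen with earlier results of these data known.

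The median log2 difference of the 42 tested members was -0.187, -0.119 and -0.033 in the 3 comparisons, beside 0.109, 0.077 and 0.036 over all genes. Rescaling the libraries by median ratios moved the median of all genes in the first comparison from 0.109 to 0.003. The share of higher genes among all called ones then went from 63.2% to 48.3%, and from 61% to 48.1% in the second comparison. Under that rescaling 6 members were higher and 27 lower between double-negative and double-positive cells, and 6 and 21 between CD201-only and double-positive cells. Small rises below are relative to this shift.

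**Figure D1:**
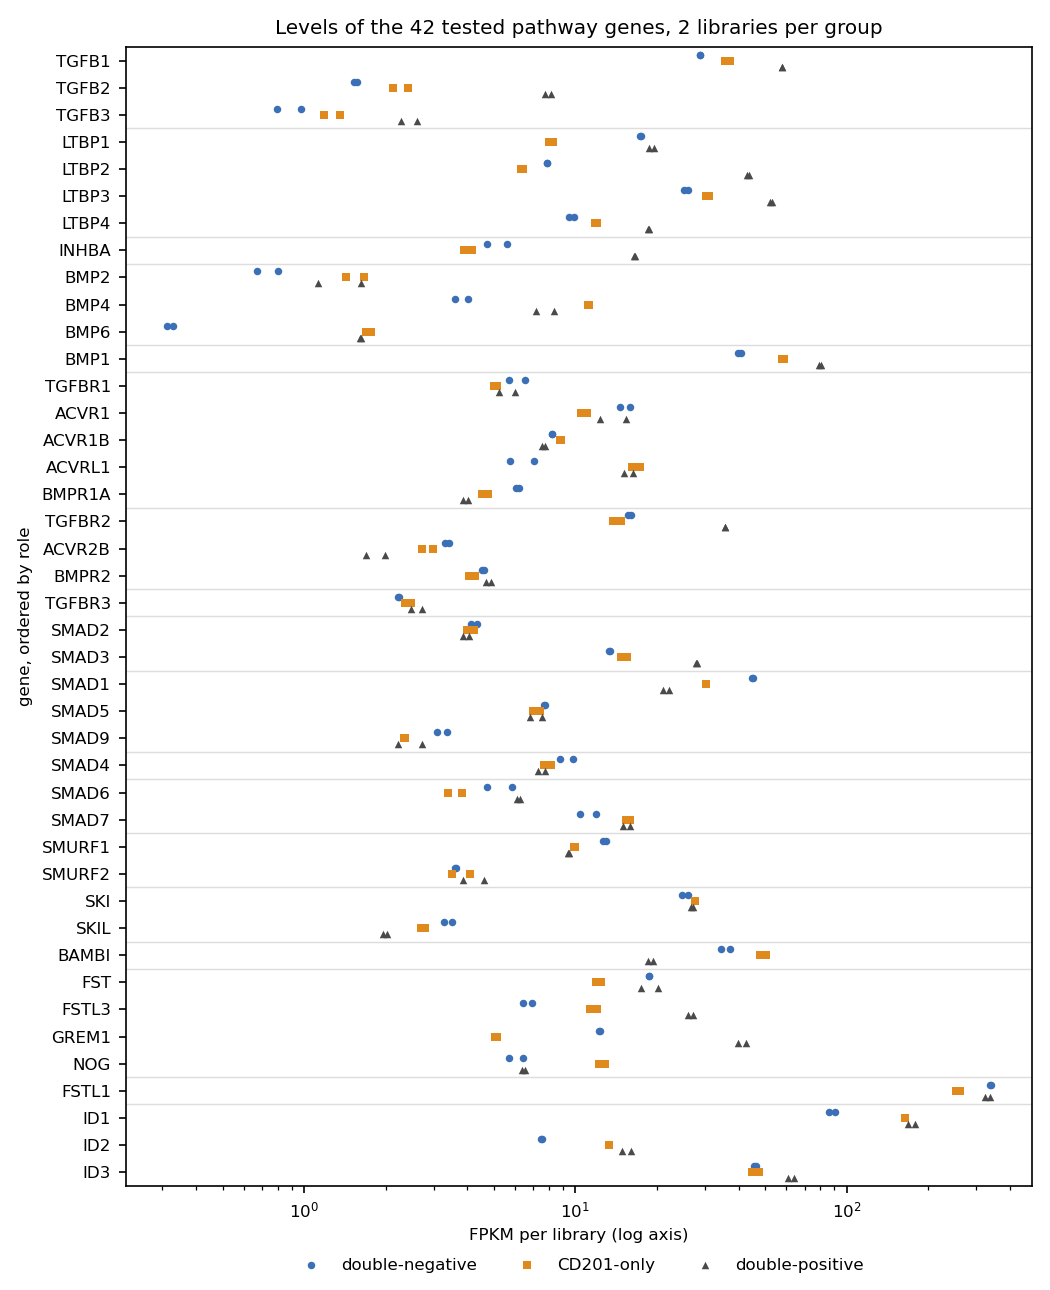
FPKM of each library (log axis) for the 42 members that passed the filter, ordered by role from ligands at the top to ID genes at the bottom, with grey lines between roles. Circles, squares and triangles are the 2 libraries of the double-negative, CD201-only and double-positive groups. Levels span from 0.312 FPKM for BMP6 in a double-negative library to 340.5 FPKM for FSTL1.

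All 3 TGF-beta ligands were lower in double-negative and in CD201-only cells than in double-positive cells. TGFB1, the ligand with the highest level, was at 28.84 and 28.78 FPKM in the double-negative pair, 35.54 and 37.33 in the CD201-only pair and 57.78 and 57.89 in the double-positive pair of libraries. These groups did not overlap, and double-negative was the lowest. The log2 difference from double-positive cells was -0.98 (SE 0.0345, adjusted p = 8.61e-07) in double-negative and -0.65 (adjusted p = 6.23e-06) in CD201-only cells. TGFB2, a ligand with roles in development and in mesenchymal transition, was at 1.52 and 1.56 FPKM, 2.42 and 2.13 FPKM, and 8.10 and 7.76 FPKM in the same order. Its level in double-positive cells was 5.14 times that in double-negative and 3.49 times that in CD201-only cells, with log2 differences of -1.81 (SE 0.0766, adjusted p = 1.81e-06) and -1.45 (adjusted p = 6.2e-06). TGFB3, the third isoform, was near the filter, at 0.970 and 0.794, 1.36 and 1.18, and 2.27 and 2.61 FPKM. Its differences from double-positive cells were -0.87 (adjusted p = 0.000242) and -0.60 (adjusted p = 0.00189).

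Between double-negative and CD201-only cells, TGFB1 was lower in double-negative cells (-0.33, adjusted p = 0.000407). TGFB2 differed by -0.36 (adjusted p = 0.00954), a call that was lost on leaving out double-negative replicate 1 (adjusted p = 0.056) or CD201-only replicate 1 (adjusted p = 0.0599). TGFB3 was not called (-0.27, adjusted p = 0.073), and was called under quantile normalization (-0.33, adjusted p = 0.0418) and without the variance trend (adjusted p = 0.047). With a pseudocount of 0.1 the TGFB3 difference of double-negative from double-positive cells was -1.38.

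The 4 latent TGF-beta binding proteins were also lower in both CD13- groups, by very unequal amounts. LTBP2, a microfibril protein that does not itself bind latent TGF-beta well, was at 7.88 and 7.84 FPKM in the double-negative pair, 6.28 and 6.43 in the CD201-only pair and 43.6 and 43.1 in the double-positive pair of libraries. The double-positive level was thus 5.52 and 6.82 times the other levels, with log2 differences of -2.32 (SE 0.0423, adjusted p = 6.13e-08) and -2.59 (adjusted p = 4.65e-08). LTBP3, which is needed for secretion of latent TGF-beta in several tissues, was at 25.2 and 26.0, 31.0 and 30.4, and 53.1 and 52.2 FPKM. It was lower in double-negative (-1.01, adjusted p = 7.18e-07) and in CD201-only cells (-0.76, adjusted p = 2.91e-06) than in double-positive cells. LTBP4, which anchors latent TGF-beta to elastic fibres, was at 9.70 ± 0.280 FPKM (SD, n = 2), 11.9 ± 0.172 and 18.6 ± 0.113. Its differences were -0.87 (adjusted p = 4.47e-06) and -0.60 (adjusted p = 3.28e-05).

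LTBP1, the main carrier of latent TGF-beta in fibroblasts, departed from that order. It was at 17.5 and 17.3 FPKM in the double-negative pair, 8.00 and 8.24 in the CD201-only pair and 18.8 and 19.5 in the double-positive pair of libraries, so that CD201-only cells alone were far below. The CD201-only level was lower than the double-positive one (-1.14, SE 0.0446, adjusted p = 1.68e-06), and the double-negative level was 2.14 times the CD201-only one (1.01, adjusted p = 7.3e-06). The small difference between double-negative and double-positive cells (-0.13, adjusted p = 0.0349) was no longer called without double-negative replicate 1 (adjusted p = 0.106) or 2 (adjusted p = 0.135) or double-positive replicate 2 (adjusted p = 0.143), and was -0.25 under median-ratio rescaling.

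INHBA, whose product forms activin A, was the 1 activin subunit above the filter. Its values were 5.59 and 4.74 FPKM in the double-negative pair, 4.16 and 3.89 in the CD201-only pair and 16.4 and 16.6 in the double-positive pair of libraries. Both CD13- groups lay far below double-positive cells, with differences of -1.51 (SE 0.0774, adjusted p = 4.38e-06) and -1.80 (adjusted p = 2.51e-06). Double-negative cells were above CD201-only cells by 0.29 (adjusted p = 0.0233). That difference was not called with no filter on low genes (adjusted p = 0.0616) or after quantile normalization (adjusted p = 0.0619). Nor was it called without double-negative replicate 1 (0.19), CD201-only replicate 1 (0.33) or CD201-only replicate 2 (0.25). INHBB, the subunit of activin B, stayed between 0.0391 and 0.534 FPKM, and INHBE, a subunit known from liver, between 0.111 and 0.543 FPKM. Neither was tested, and for both the double-positive libraries were the highest. Without the filter, both were lower in double-negative cells than in double-positive cells (INHBB -0.41, adjusted p = 0.00365, and INHBE -0.30, adjusted p = 0.00361) and in CD201-only cells (-0.46, adjusted p = 0.00287, and -0.43, adjusted p = 0.00139).

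The tested BMP ligands BMP2, BMP4 and BMP6 followed another order, with the lowest level in double-negative cells and no call below double-positive cells in CD201-only cells. BMP4, an inducer of mesoderm and of trophoblast and amnion fates in pluripotent cells, was at 3.61 and 4.03 FPKM in the double-negative pair, 11.1 and 11.2 in the CD201-only pair and 8.33 and 7.18 in the double-positive pair of libraries. The 3 groups did not overlap and CD201-only cells were the highest. The CD201-only level was 2.93 times the double-negative level (log2 difference of double-negative from CD201-only cells -1.34, SE 0.0800, adjusted p = 2.87e-05). Against double-positive cells BMP4 was lower in double-negative (-0.86, adjusted p = 8.13e-05) and higher in CD201-only cells (0.48, adjusted p = 0.00181). BMP6, a ligand that signals through ACVR1 and also regulates iron balance, was at 0.328 and 0.312, 1.69 and 1.76, and 1.62 and 1.60 FPKM. Its double-negative level was lower than the double-positive (-0.98, adjusted p = 5.7e-05) and than the CD201-only level (-1.05, adjusted p = 0.00012). The pseudocount compresses these differences, which were -2.03 and -2.12 with a pseudocount of 0.1, and the ratios of mean FPKM were 5.03 and 5.39. CD201-only and double-positive cells differed by 0.06 in BMP6 (adjusted p = 0.563).

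BMP2, close to BMP4 in sequence and receptors, was at 0.802 and 0.672 FPKM, 1.66 and 1.43 FPKM, and 1.62 and 1.13 FPKM. Its level was lower in double-negative than in double-positive cells (-0.44, adjusted p = 0.0167) and than in CD201-only cells (-0.55, adjusted p = 0.0128). Leaving out double-negative replicate 2 ended both calls (adjusted p = 0.083 and 0.0741), as did double-positive replicate 1 for the first (-0.29, adjusted p = 0.0747) and CD201-only replicate 1 for the second (adjusted p = 0.0742). With a pseudocount of 0.1 the BMP2 differences were -0.80 and -0.97. BMP7, a ligand of epithelia and kidney, was at most 0.068 FPKM in any library and was not tested.

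BMP1 carries the family's name but encodes a secreted metalloproteinase that cleaves procollagen and latent binding proteins. It was at 40.7 and 39.8 FPKM in the double-negative pair, 58.0 and 58.6 in the CD201-only pair and 80.7 and 79.1 in the double-positive pair of libraries. The 3 groups were separate, and double-negative cells were lower than double-positive (-0.97, SE 0.0291, adjusted p = 4.57e-07) and than CD201-only cells (-0.52, adjusted p = 2.1e-05). CD201-only cells were lower than double-positive cells (-0.45, adjusted p = 1.63e-05).

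**Figure D2:**
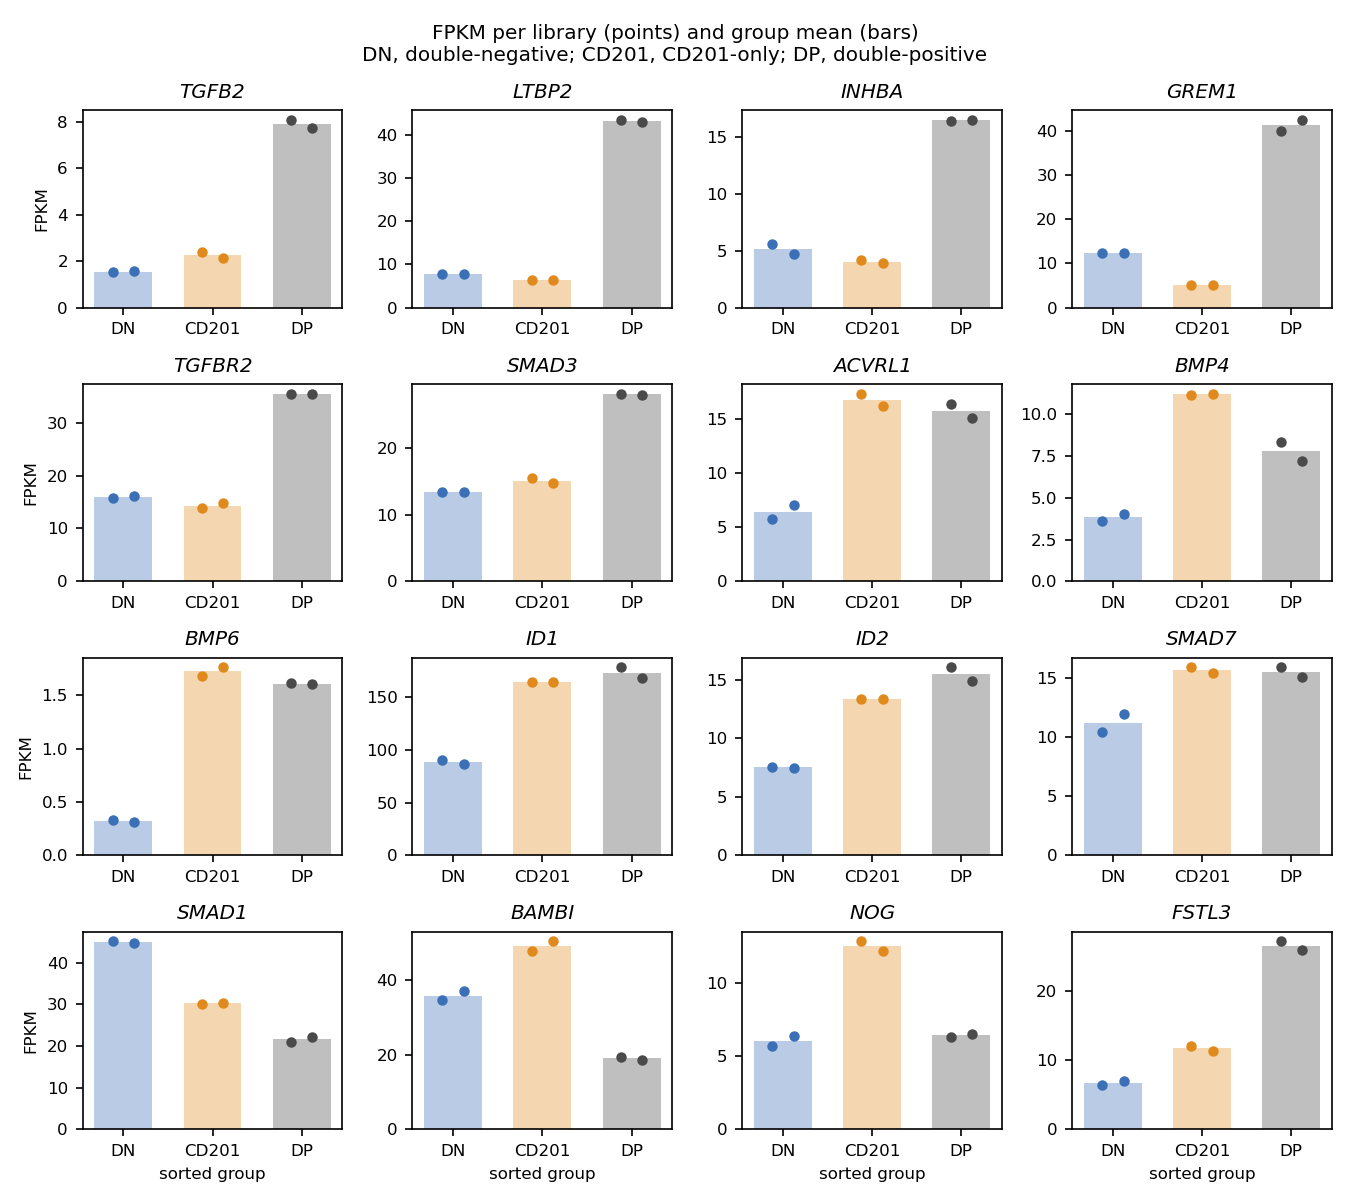
FPKM of each library (points) and group mean (bars, axis from 0) for 16 members in double-negative (DN), CD201-only (CD201) and double-positive (DP) cells. TGFB2, LTBP2, INHBA, GREM1, TGFBR2 and SMAD3 stand highest in double-positive cells. ACVRL1, BMP4, BMP6, ID1, ID2 and SMAD7 are lowest in double-negative cells, and SMAD1 is highest there.

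Among the receptors, TGFBR2 and ACVRL1 differed at least 2-fold between groups. TGFBR2, the type II receptor that binds TGF-beta first, was at 15.7 and 16.1 FPKM in the double-negative pair, 13.8 and 14.8 in the CD201-only pair and 35.5 and 35.5 in the double-positive pair of libraries. It was lower in double-negative (-1.11, SE 0.0449, adjusted p = 1.5e-06) and in CD201-only cells (-1.26, adjusted p = 1.18e-06) than in double-positive cells. The difference between the 2 CD13- groups (0.14, adjusted p = 0.0417) was lost in 10 of 16 alternatives, 5 of them with 1 library left out: double-negative replicate 1 (adjusted p = 0.106) or 2 (adjusted p = 0.18), CD201-only replicate 1 (adjusted p = 0.2), and double-positive replicate 1 (adjusted p = 0.0571) or 2 (adjusted p = 0.0572). TGFBR1, the type I kinase that works with it, was at 6.09 ± 0.589 FPKM (SD, n = 2), 5.08 ± 0.0787 and 5.61 ± 0.533 and was not called in any comparison, and neither was the co-receptor TGFBR3, betaglycan, at 2.23 ± 0.00641, 2.41 ± 0.0926 and 2.59 ± 0.172. TGFBR3 was called lower in double-negative than in double-positive cells under median-ratio rescaling (-0.24, adjusted p = 0.03) and without the variance trend (-0.16, adjusted p = 0.0383).

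ACVRL1, or ALK1, a type I receptor for BMP9 and BMP10 best known from endothelium, was at 5.76 and 7.03 FPKM in the double-negative pair, 17.4 and 16.2 in the CD201-only pair and 16.3 and 15.1 in the double-positive pair of libraries. Double-negative libraries lay below both other groups, which overlapped. The double-negative level was lower than the double-positive (-1.18, SE 0.0878, adjusted p = 2.64e-05) and than the CD201-only level (-1.27, adjusted p = 5.63e-05), and CD201-only minus double-positive cells was 0.09 (adjusted p = 0.401). Of 5 endothelial markers 1 had a mean above 1 FPKM over the 6 libraries, the receptor kinase TEK at 13.7 ± 0.305, 25.5 ± 1.26 and 19.0 ± 1.35 FPKM (SD, n = 2). The summed level of the 5 was 14.1 to 14.6 FPKM in the double-negative pair, 25.3 to 27.1 in the CD201-only pair and 19.1 to 21.0 in the double-positive pair of libraries. PECAM1, CDH5 and ERG stayed at or under 0.261 FPKM in every library, with PECAM1 at 0 in both double-negative libraries. VWF was at 0.390 ± 0.0110, 0.522 ± 0.00639 and 0.949 ± 0.0726 FPKM (SD, n = 2), highest in double-positive cells, where TEK was highest in CD201-only cells.

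Among receptors of the activin and BMP arms, BMPR1A and ACVR2B were higher in both CD13- groups than in double-positive cells. BMPR1A, the type I receptor for BMP2 and BMP4, was at 6.21 and 6.03 FPKM, 4.78 and 4.53 FPKM, and 4.01 and 3.84 FPKM in double-negative, CD201-only and double-positive libraries. Its double-negative level was above the double-positive by 0.53 (SE 0.0636, adjusted p = 0.000287) and above the CD201-only level by 0.33 (adjusted p = 0.00624, or 0.0504 without double-negative replicate 1). The rise in CD201-only over double-positive cells (0.20, adjusted p = 0.0314) was lost in 9 of the 15 alternatives that tested it, including each of the 6 with 1 library left out (adjusted p = 0.0563 to 0.144), and was 0.13 under median-ratio rescaling. ACVR2B, a type II receptor for activins, was at 3.42 and 3.31, 2.995 and 2.713, and 1.98 and 1.70 FPKM. It was higher in double-negative (0.62, adjusted p = 0.000567) and CD201-only cells (0.44, adjusted p = 0.00365) than in double-positive cells. Double-negative and CD201-only cells were not called apart in ACVR2B (0.18, adjusted p = 0.141).

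The remaining receptors had calls of less than 2-fold or none. ACVR1B, the activin type I receptor ALK4, was at 8.23 ± 0.0133, 8.84 ± 0.0440 and 7.64 ± 0.153 FPKM (SD, n = 2). Its call in CD201-only cells (0.19, adjusted p = 0.0155) was lost without CD201-only replicate 1 (adjusted p = 0.0692) or 2 (adjusted p = 0.0598), without double-positive replicate 1 (adjusted p = 0.0634), and under median-ratio rescaling (0.11, adjusted p = 0.0976). ACVR1, the BMP type I receptor ALK2, was at 15.2 ± 0.847, 10.8 ± 0.370 and 13.8 ± 2.13 FPKM, lowest in CD201-only cells. It differed by -0.33 (adjusted p = 0.0216) from double-positive and by 0.47 (double-negative minus CD201-only, adjusted p = 0.00825) from double-negative cells. The first call was lost without CD201-only replicate 1 (adjusted p = 0.0988) or 2 (adjusted p = 0.0572), without double-positive replicate 2 (-0.18, adjusted p = 0.0698) and with no filter on low genes (adjusted p = 0.0672), and the second without double-negative replicate 1 (adjusted p = 0.0687) or CD201-only replicate 1 (adjusted p = 0.0522). Without double-positive replicate 2, ACVR1 was called higher in double-negative than in double-positive cells (0.29, adjusted p = 0.0129, against 0.14 and adjusted p = 0.235 with it). BMPR2, the BMP type II receptor, was at 4.58 ± 0.0535, 4.15 ± 0.140 and 4.80 ± 0.140 FPKM and was not called, though CD201-only cells were called lower than double-positive cells under median-ratio rescaling (-0.24, adjusted p = 0.0153) and without the trend (-0.17, adjusted p = 0.0196). ACVR2A reached at most 0.575 FPKM and BMPR1B at most 0.0694 FPKM, with both CD201-only libraries listed at 0, and neither was tested.

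SMAD3 was highest in double-positive cells and SMAD1 in double-negative cells. SMAD3, which acts after TGF-beta and activin, was at 13.3 and 13.4 FPKM in the double-negative pair, 15.5 and 14.8 in the CD201-only pair and 28.2 and 28.0 in the double-positive pair of libraries. Levels were lower in double-negative (-1.01, SE 0.0409, adjusted p = 1.5e-06) and in CD201-only cells (-0.85, adjusted p = 4.09e-06) than in double-positive cells. Its difference between double-negative and CD201-only cells (-0.16, adjusted p = 0.0193) was lost on leaving out double-negative replicate 1 (adjusted p = 0.0928) or 2 (adjusted p = 0.0809) or CD201-only replicate 1 (adjusted p = 0.108). SMAD1, which acts after BMP, was at 45.2 and 44.8 FPKM in the double-negative pair, 30.2 and 30.3 in the CD201-only pair and 21.0 and 22.2 in the double-positive pair of libraries. The 3 groups did not overlap in SMAD1. Relative to double-positive cells it was higher by 0.47 (adjusted p = 4.15e-05) in CD201-only and by 1.03 (SE 0.0368, adjusted p = 9.26e-07) in double-negative cells. Double-negative cells were above CD201-only cells by 0.56 (adjusted p = 4.55e-05).

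Among the other SMADs, calls were fewer. SMAD2, the relative of SMAD3, was at 4.23 ± 0.129, 4.10 ± 0.170 and 3.96 ± 0.154 FPKM (SD, n = 2), and SMAD5, the relative of SMAD1, at 7.69 ± 0.0579, 7.20 ± 0.311 and 7.15 ± 0.521. Neither was called in any comparison. SMAD4, shared by both arms, was at 9.28 ± 0.748, 7.88 ± 0.356 and 7.49 ± 0.334 FPKM. It was called higher in double-negative than in double-positive cells (0.27, adjusted p = 0.0111), but not without double-negative replicate 2 (adjusted p = 0.0798) or double-positive replicate 1 (adjusted p = 0.059), nor under median-ratio rescaling (0.16, adjusted p = 0.0762). Between double-negative and CD201-only cells SMAD4 was at 0.21 (adjusted p = 0.0541), and was called in the fit with a replicate block (adjusted p = 0.0277) and with a filter at 5 FPKM (adjusted p = 0.0495). SMAD9, the least abundant receptor SMAD, was at 3.22 ± 0.197, 2.35 ± 0.0143 and 2.47 ± 0.349 FPKM. Its calls in double-negative cells (0.29 against double-positive, adjusted p = 0.0292, and 0.33 against CD201-only, adjusted p = 0.0285) were each lost in 6 of the 15 alternatives that tested it. Those for the first include leaving out double-negative replicate 1 (adjusted p = 0.14) or 2 (adjusted p = 0.0578) or double-positive replicate 2 (0.18, adjusted p = 0.136), and those for the second any double-negative or CD201-only library (adjusted p = 0.0709 to 0.144).

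**Figure D3:**
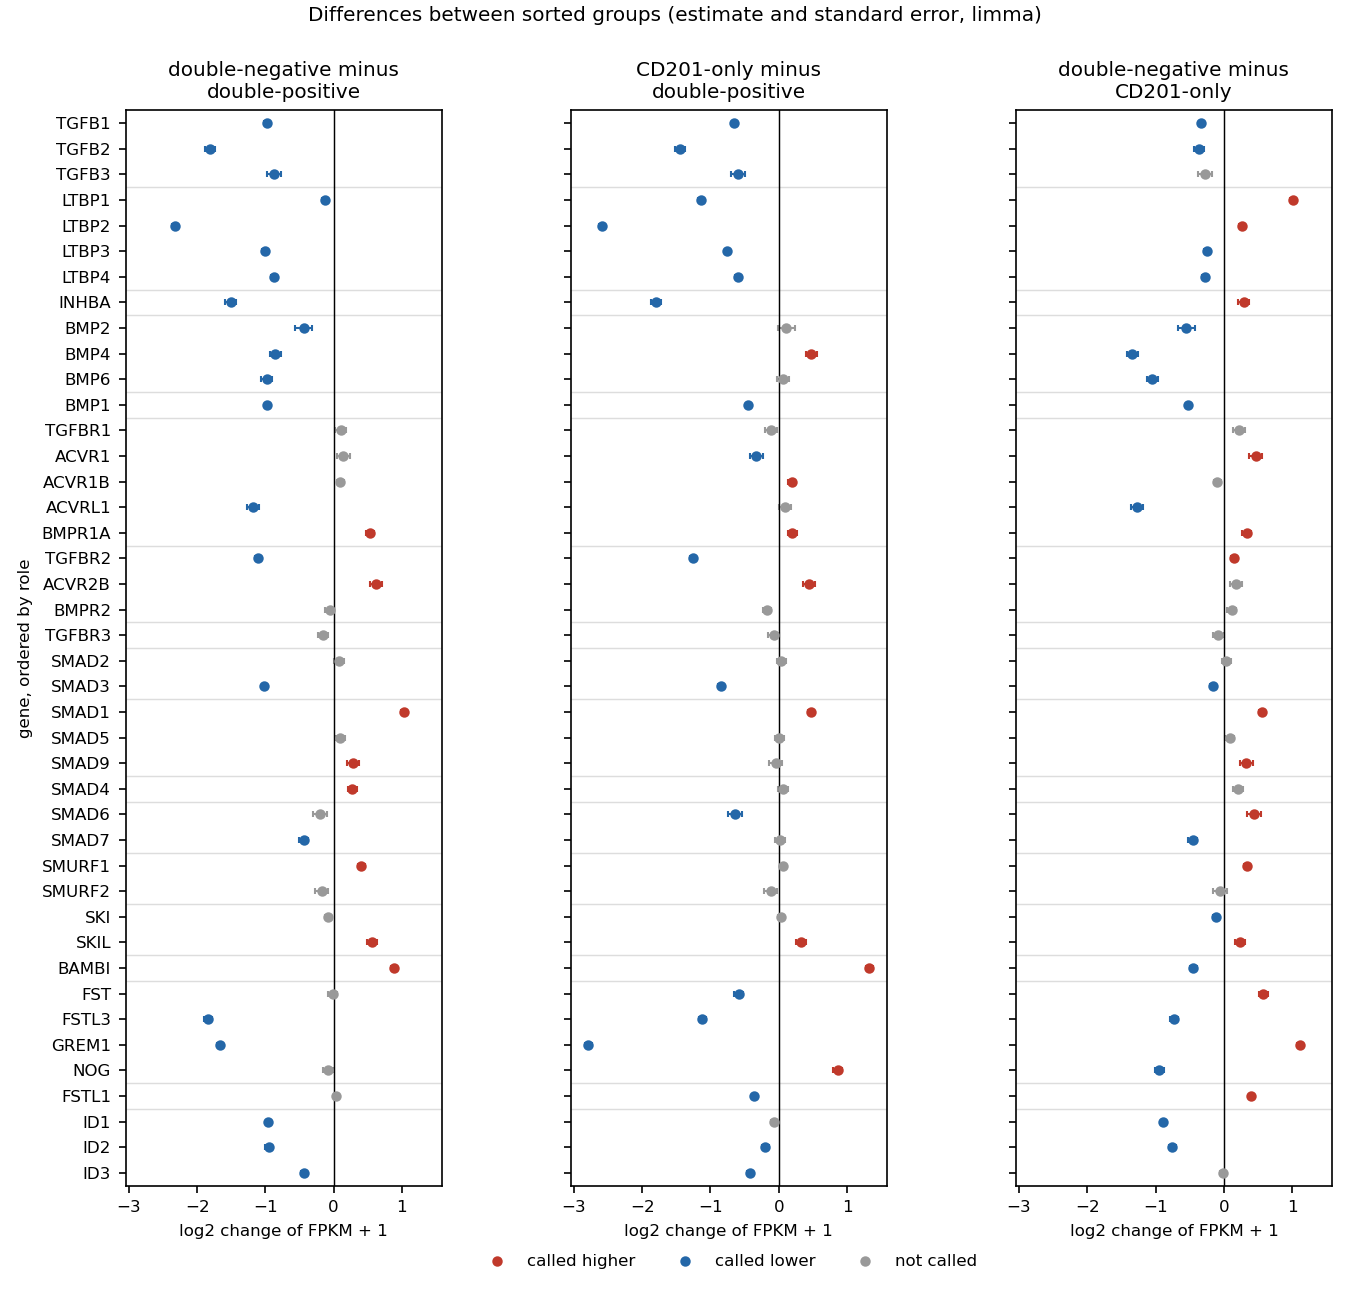
Log2 difference of FPKM + 1 (horizontal axis, points) with its standard error (bars) for the 42 tested members in each comparison, ordered by role. Red points were called higher in the first group, blue points lower and grey points not called. GREM1 at -2.79 and LTBP2 at -2.59 in CD201-only against double-positive cells lie farthest from 0, and BAMBI at 1.33 there is the highest point.

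The inhibitory SMADs, which SMAD signalling itself induces, had different profiles. SMAD7, which blocks both arms, was at 10.4 and 11.9 FPKM in the double-negative pair, 15.9 and 15.4 in the CD201-only pair and 15.9 and 15.0 in the double-positive pair of libraries. Double-negative cells were lower than double-positive (-0.44, SE 0.0676, adjusted p = 0.000995) and than CD201-only cells (-0.46, adjusted p = 0.00198), while CD201-only minus double-positive cells was 0.02 (adjusted p = 0.844). SMAD6, which blocks mainly the BMP arm and whose promoter window above holds the palindrome, was at 4.70 and 5.85, 3.41 and 3.81, and 6.27 and 6.08 FPKM, lowest in CD201-only cells. It was lower there than in double-positive cells (-0.64, SE 0.0986, adjusted p = 0.00123). Double-negative cells were above CD201-only cells by 0.44 (adjusted p = 0.012, or 0.0651 without double-negative replicate 2 and 0.0733 without CD201-only replicate 1). Against double-positive cells SMAD6 was at -0.20 in double-negative cells (adjusted p = 0.113), and was called under median-ratio rescaling (-0.30, adjusted p = 0.03) and without double-negative replicate 2 (-0.33, adjusted p = 0.0281).

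Of the other intracellular regulators, SKIL and SMURF1 were highest in double-negative cells. SKIL, or SnoN, a repressor of SMAD complexes, was at 3.51 and 3.28 FPKM, 2.79 and 2.69 FPKM, and 1.95 and 2.03 FPKM, higher in double-negative (0.56, SE 0.0740, adjusted p = 0.000487) and CD201-only cells (0.32, adjusted p = 0.008) than in double-positive cells. Its difference between the CD13- groups (0.23, adjusted p = 0.0444) was lost in 11 of 15 alternatives, including each library left out (adjusted p = 0.0515 to 0.185) and the replicate block (adjusted p = 0.0613). SMURF1, a ubiquitin ligase for BMP SMADs and receptors, was at 12.8 ± 0.227, 9.91 ± 0.0289 and 9.43 ± 0.0456 FPKM (SD, n = 2). Double-negative cells were above double-positive by 0.41 (adjusted p = 0.000209) and above CD201-only cells by 0.34 (adjusted p = 0.00125). SKI, the paralog of SKIL, was at 25.4 ± 0.865, 27.6 ± 0.0868 and 26.9 ± 0.298 FPKM (SD, n = 2). Its call between double-negative and CD201-only cells (-0.12, adjusted p = 0.0476) was also lost in 11 of 16 alternatives, including each library left out (adjusted p = 0.0531 to 0.231) and the replicate block (adjusted p = 0.0504), and double-negative cells were called lower than double-positive cells after rescaling by median ratios (-0.20, adjusted p = 0.00318) and after quantile normalization (-0.12, adjusted p = 0.0347). SMURF2, at 3.62 ± 0.0360, 3.80 ± 0.425 and 4.22 ± 0.524 FPKM, was not called, though median-ratio rescaling called it lower in double-negative than in double-positive cells (-0.27, adjusted p = 0.0403).

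BAMBI, a decoy that resembles a type I receptor without its kinase, had the highest positive log2 difference among the members. It was at 34.6 and 37.1 FPKM in the double-negative pair, 47.8 and 50.5 in the CD201-only pair and 19.4 and 18.6 in the double-positive pair of libraries. The 3 groups did not overlap. Relative to double-positive cells it was higher by 1.33 (SE 0.0484, adjusted p = 1.29e-06) in CD201-only and by 0.88 (adjusted p = 6.01e-06) in double-negative cells, and double-negative cells were below CD201-only cells (-0.44, adjusted p = 0.000482).

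Secreted antagonists of the BMP and activin ligands moved in different directions. GREM1, gremlin, which traps BMP2 and BMP4 and is made by many fibroblasts, was at 12.3 and 12.3 FPKM in the double-negative pair, 5.07 and 5.14 in the CD201-only pair and 40.0 and 42.5 in the double-positive pair of libraries. The double-positive level was 3.36 times the double-negative and 8.08 times the CD201-only level, with log2 differences of -1.67 (SE 0.0471, adjusted p = 3.62e-07) and -2.79 (adjusted p = 5.03e-08). Double-negative cells were above CD201-only cells by 1.12 (adjusted p = 6.31e-06). NOG, noggin, another trap of BMP2 and BMP4, was highest in CD201-only cells, at 5.67 and 6.40, 12.9 and 12.2, and 6.34 and 6.54 FPKM. It was higher in CD201-only than in double-positive cells by 0.86 (SE 0.0678, adjusted p = 4.15e-05) and lower in double-negative than in CD201-only cells (-0.94, adjusted p = 6.65e-05). Double-negative and double-positive cells overlapped in NOG (-0.08, adjusted p = 0.315, though -0.19 and adjusted p = 0.0433 under median-ratio rescaling).

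FST, follistatin, the main trap of activins, was at 18.7 and 18.6 FPKM in the double-negative pair, 12.4 and 11.9 in the CD201-only pair and 17.5 and 20.2 in the double-positive pair of libraries. It was lower in CD201-only than in double-positive cells (-0.59, adjusted p = 0.000242), and double-negative cells were above CD201-only cells by 0.58 (adjusted p = 0.000582). FSTL3, a follistatin-like activin trap, was at 6.42 and 6.93, 12.1 and 11.4, and 27.2 and 25.9 FPKM. The FSTL3 differences from double-positive cells were -1.85 (SE 0.0562, adjusted p = 4.81e-07) in double-negative and -1.12 (adjusted p = 4.93e-06) in CD201-only cells. Double-negative cells were below CD201-only cells (-0.73, adjusted p = 9.26e-05). FSTL1, a secreted glycoprotein of mesenchymal cells with a follistatin domain, had the highest level of the members, at 339.5 and 340.5, 253.8 and 261.5, and 325.3 and 337.0 FPKM. Levels were lower in CD201-only than in double-positive cells (-0.36, adjusted p = 3.02e-05) and double-negative cells were above CD201-only cells by 0.40 (adjusted p = 4.8e-05). Double-negative and double-positive cells differed by 0.04 in FSTL1 (adjusted p = 0.241), a difference that turned to -0.08 (adjusted p = 0.0267) under median-ratio rescaling.

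The ID genes encode helix-loop-helix proteins that bind E proteins and keep them from DNA, and ID1, ID2 and ID3 are direct targets of BMP SMADs. ID1 was at 90.5 and 86.4 FPKM in the double-negative pair, 164.2 and 164.5 in the CD201-only pair and 178.2 and 168.1 in the double-positive pair of libraries, so double-negative libraries were below both other groups. The log2 differences of double-negative cells were -0.96 (SE 0.0361, adjusted p = 1.12e-06) from double-positive and -0.89 (adjusted p = 5.7e-06) from CD201-only cells. CD201-only and double-positive cells differed by -0.07 in ID1 (adjusted p = 0.114), which was called after rescaling by median ratios (-0.16, adjusted p = 0.0103), after quantile normalization (-0.14, adjusted p = 0.0188) and without double-positive replicate 2 (-0.12, adjusted p = 0.0319). ID2 was at 7.52 and 7.48, 13.3 and 13.3, and 16.1 and 14.9 FPKM. Double-negative cells were lower in ID2 than double-positive (-0.95, SE 0.0513, adjusted p = 5.47e-06) and than CD201-only cells (-0.75, adjusted p = 5.27e-05). The smaller ID2 difference of CD201-only from double-positive cells (-0.20, adjusted p = 0.0129) was lost without CD201-only replicate 1 (adjusted p = 0.0569) or 2 (adjusted p = 0.0558) or double-positive replicate 1 (adjusted p = 0.067).

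ID3 was at 46.2 and 45.6 FPKM in the double-negative pair, 47.5 and 45.0 in the CD201-only pair and 63.9 and 60.7 in the double-positive pair of libraries, and the CD13- groups overlapped. It was lower in double-negative (-0.43, SE 0.0399, adjusted p = 7.8e-05) and in CD201-only cells (-0.42, adjusted p = 0.000107) than in double-positive cells, and the CD13- groups differed by -0.01 (adjusted p = 0.849). ID4 was at 0.642 to 1.32 FPKM, with the double-positive libraries highest, and its mean was under the filter. Without the filter it was lower in double-negative (-0.45, adjusted p = 0.00635) and CD201-only cells (-0.33, adjusted p = 0.0221) than in double-positive cells.

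Other genes of the pathway and its targets were taken as 7 lists with 103 symbols, of which 101 were in the table and 69 passed the filter. The lists were chosen with earlier results of these data known, so their counts and medians describe them and are no independent test. From each list the 2 called genes with the largest difference are named. Their counts stand beside 42.1% higher and 24.5% lower among all genes in double-negative against double-positive cells, 35.8% and 22.9% in CD201-only against double-positive cells, and 21.5% and 16.5% in double-negative against CD201-only cells. Of 22 TGF-beta target genes, a list of matrix, cytoskeletal and regulatory genes, 3 were higher and 18 lower in double-negative than in double-positive cells, with a median of -0.996 beside 0.109 over all genes. In CD201-only cells 4 were higher and 16 lower (median -0.60), and between double-negative and CD201-only cells 10 were higher and 10 lower (median 0.06). LOXL2, a collagen cross-linking enzyme, was at 73.2 ± 0.703, 34.4 ± 0.192 and 310.3 ± 5.90 FPKM (SD, n = 2) in the order double-negative, CD201-only, double-positive. FN1, fibronectin, was at 168.8 ± 2.55, 67.2 ± 2.87 and 584.9 ± 14.6 FPKM. Both were lowest in CD201-only cells, as GREM1 and LTBP1 were, with log2 differences from double-positive cells there of -3.14 (adjusted p = 3.88e-09) and -3.10 (adjusted p = 9.53e-09). COL1A1, COL1A2 and COL3A1 stand both in this list and among the fibroblast markers, whose sums are given above. FBN1 in the list of latency and activation and DCN in that of antagonists, both below, are fibroblast markers too.

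Of 7 tested BMP target genes of 14 listed, 1 was higher and 4 were lower in double-negative than in double-positive cells, 2 were higher and 3 lower in CD201-only than in double-positive cells, and 3 were higher and 3 lower between double-negative and CD201-only cells. HEY1, a repressor downstream of BMP and Notch, was at 7.46 ± 0.473, 29.9 ± 0.412 and 15.5 ± 1.34 FPKM (SD, n = 2), the order that BMP4 had. Its differences were -0.96 (adjusted p = 1.98e-05) in double-negative and 0.91 (adjusted p = 3.1e-05) in CD201-only cells, both relative to double-positive cells, and -1.87 (adjusted p = 3.76e-06) between double-negative and CD201-only cells. MSX1, a homeobox gene, was at 11.7 ± 0.783, 8.00 ± 0.990 and 21.0 ± 0.962 FPKM and was lowest in CD201-only cells (-1.30 against double-positive cells, adjusted p = 1.68e-05).

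Outside the cell, 1 of 10 tested antagonists was higher and 7 were lower in double-negative than in double-positive cells, and the counts were the same in CD201-only cells. Among them, BGN, biglycan, a proteoglycan that binds TGF-beta and BMP4, was at 23.0 ± 0.689, 30.0 ± 0.403 and 133.1 ± 3.34 FPKM (SD, n = 2), and NBL1, a DAN-family BMP antagonist, was at 48.9 ± 1.80, 43.0 ± 1.99 and 203.3 ± 1.80. BGN was lower in double-negative (-2.48, adjusted p = 2.86e-08) and in CD201-only cells (-2.11, adjusted p = 5.03e-08) than in double-positive cells, and so was NBL1 (-2.03, adjusted p = 7.93e-08, and -2.22, adjusted p = 8.15e-08). Of 7 tested genes of latency and activation, 2 were higher and 5 lower in double-negative and 3 higher and 4 lower in CD201-only than in double-positive cells. THBS1, a matrix glycoprotein that can activate latent TGF-beta, was at 87.1 ± 0.176, 43.8 ± 0.928 and 382.7 ± 0.0969 FPKM (differences of -2.12, adjusted p = 1.9e-08, and -3.10, adjusted p = 3.88e-09). FBN1, the fibrillin to which latent complexes bind, was at 22.04 ± 0.251, 25.9 ± 0.405 and 57.7 ± 0.0618 FPKM (-1.35, adjusted p = 1.72e-07, and -1.13, adjusted p = 5.03e-07).

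Of 6 tested further receptors and co-receptors, 2 were higher and 3 lower in double-negative and 0 higher and 3 lower in CD201-only than in double-positive cells. ENG, endoglin, the co-receptor that works with ALK1, was at 24.9 ± 0.00283, 34.0 ± 0.304 and 73.9 ± 4.04 FPKM (SD, n = 2). It was lower in CD201-only than in double-positive cells (-1.10, adjusted p = 1.52e-06) as well as in double-negative cells (-1.53, adjusted p = 3.06e-07). RGMB, a BMP co-receptor, was at 22.3 ± 0.0559, 11.3 ± 0.423 and 50.5 ± 1.11 FPKM (-1.14, adjusted p = 9e-07, in double-negative and -2.06, adjusted p = 1.11e-07, in CD201-only cells, relative to double-positive cells). Of 15 intracellular cofactors, 8 were higher and 3 lower in double-negative and 6 higher and 1 lower in CD201-only than in double-positive cells, where 66.6% and 58.7% of all genes were called in either direction. FOXH1, a SMAD2 partner of pluripotent cells and the early embryo, was at 11.1 ± 0.546, 6.23 ± 0.279 and 3.57 ± 0.496 FPKM (1.41, adjusted p = 1.02e-05, and 0.67, adjusted p = 0.000528), in the same order as SMAD1. PMEPA1, a feedback inhibitor that TGF-beta induces, was at 3.56 ± 0.0139, 5.42 ± 0.207 and 6.19 ± 0.00393 FPKM. It was lower in double-negative than in double-positive (-0.66, adjusted p = 8.02e-05) and CD201-only cells (-0.49, adjusted p = 0.000886), and CD201-only and double-positive cells differed by -0.17 (adjusted p = 0.0521).

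Of 18 further ligands 2 passed the filter. GDF15, a stress-induced distant relative that signals through another receptor, was at 184.9 ± 0.0481, 224.0 ± 3.30 and 236.7 ± 8.34 FPKM (SD, n = 2), and GDF11, a SMAD2 and SMAD3 ligand, at 10.1 ± 0.610, 7.07 ± 0.149 and 7.17 ± 0.217. Double-negative cells differed from double-positive cells by -0.35 (adjusted p = 4.38e-05) in GDF15 and by 0.45 (adjusted p = 0.000533) in GDF11. CD201-only cells were called in neither (-0.08, adjusted p = 0.0515, and -0.02, adjusted p = 0.827).

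**Figure D4:**
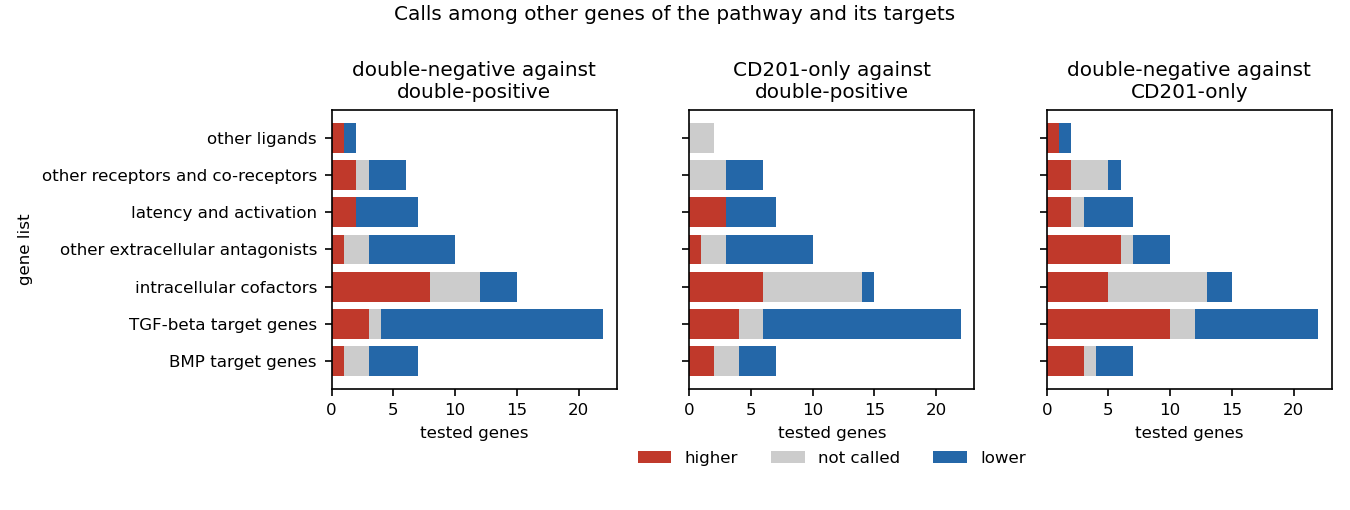
Number of tested genes (horizontal axis) called higher (red), not called (grey) or called lower (blue) in each list of other pathway genes, for the 3 comparisons. In the list of 22 TGF-beta target genes, 18 and 16 were lower against double-positive cells, and 10 were lower between double-negative and CD201-only cells.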

How the data were processed

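Poly-A RNA of 6 libraries was measured, 2 in each of 3 groups taken from the labels. The deposited values are FPKM, which the submitters' processing notes tie to STAR, Cuffnorm and the builds hg19 and GRCh37; for versions, annotation, strand setting and scaling, the authors' choices were not given in the sources used here. Each of the 6 columns matched 1 sample's description, and 0 were left over. The kit marks strand, per the labels' protocols.

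Values were used as log2(FPKM + 1). Genes whose mean reached 1 FPKM were tested, 12210 of 27788. One limma 3.58.1 model (R 4.3.3) with a coefficient per group and a variance trend gave 3 pairwise comparisons and an F test, adjusted by Benjamini-Hochberg over all tested genes, with 3 residual and 3.95 prior degrees of freedom. Fold changes on this scale understate changes of low genes. The script was tested on simulated data. Of 16 alternatives, 6 leave out 1 library each.

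The members and the lists were chosen with earlier results of these data known. All members were named; from each further list the 2 called genes with the largest difference were named. HFE2 and LRRC33 were not found by those symbols. Motifs and promoter windows were chosen after values were seen, and come from RefSeq. Relative depth was approximated by the commonest ratio of values under 0.1 FPKM to those of 1 library. Python 3.11.15, pandas 2.3.3, numpy 2.4.6 and matplotlib 3.10.9 were used.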

Additional observations from a re-analysis of the deposited data

How the results depend on the processing

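Of 87 calls of a member in a comparison, 68 were kept in every alternative that tested the gene and 19 were lost in at least 1, and 0 changed sign. The 19 are named with their values above. The count of members higher in double-negative than in double-positive cells fell from 8 to 4 with a filter at 5 FPKM, and that in CD201-only against double-positive cells from 8 to 5, because fewer genes were tested. With 1 library left out, the count of members higher in double-negative than in CD201-only cells ranged from 8 to 12, against 14; it was 8 without double-negative replicate 1 and 8 without CD201-only replicate 1, where the lone library of its group is assumed to vary like the others. In all other alternatives the counts stayed within 1.5 times. The replicate numbers were not shown to pair libraries: differences between replicates 1 and 2 correlated at -0.073 to 0.117 between groups. With the replicate number as a block, 8 members were higher and 21 lower, 8 and 19, and 14 and 16 in the 3 comparisons, and 35 differed among the groups. The F test has no value with only the compared libraries.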
